A study of Rattus norvegicus with 12 samples.

Results

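Cytochrome P450 enzymes of families other than family 1 were followed in the lungs of rats exposed to cigarette smoke (CS) and lipopolysaccharide (LPS). The members are the genes whose symbol is Cyp followed by a digit, without Cyp1a1, Cyp1a2 and Cyp1b1. The array held 64 such genes, and 32 of them were detected, against 11146 detected genes with a symbol in all. A gene counted as detected if 1 or more of its probes exceeded background clearly on the 3 arrays of any group, and its most intense probe stands for it.

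All rats were male Sprague–Dawley rats of 8 to 12 weeks, 3 per group and 1 array per rat. The RNA came from the left upper lobe of the lung. Control rats breathed air and received saline. CS+LPS rats breathed smoke for about a month and had LPS instilled into the trachea on 2 occasions, and lungs were taken a day after the last exposure. CS+LPS+NaHS rats were injected with NaHS, a donor of hydrogen sulfide, before each exposure. CS+LPS+PPG rats were injected in the same way with PPG (propargylglycine), which inhibits the hydrogen sulfide forming enzyme CTH.

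P450 enzymes are heme proteins that insert 1 oxygen atom into a substrate, and most of them take their electrons from the reductase Por in the endoplasmic reticulum or, in mitochondria, from ferredoxins. Families 2 and 3 mainly oxidize drugs and inhaled chemicals, family 4 hydroxylates fatty acids and eicosanoids, and the higher families act on sterols, steroid hormones, vitamin D and retinoic acid. In the lung, club cells of the small airways are known for their high content of P450 enzymes of families 2 and 4. Family 1, the classical smoke-induced family, is not described here.

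Values are log2 signals after each array was scaled to a common 75th percentile, and a fold change is a difference of these log2 values. Differences were tested with limma over 21239 probes. A gene was called DE (differentially expressed) if it changed 2-fold or more with p under 0.05 before adjustment, and calls at a Benjamini-Hochberg adjusted p under 0.05 were counted apart. In whole tissue, fewer cells of a type and less RNA per cell cannot be told apart.

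The array Control 3 stood apart, with a Pearson's r of 0.936 to 0.957 with the other arrays, which correlated with each other at 0.975 or more. The 3 CS+LPS arrays and Control 3 lay on slide 2, and the other 8 arrays lay on slide 1. Slide and treatment therefore cannot be told apart where CS+LPS rats are compared with NaHS or PPG rats. Markers of type 2 cells, endothelium, airway and blood cells were detected, and 5 of 8 hepatocyte markers (Alb, Apoa1, Fga, Fgb and Ahsg) were not detected. Of 7 detected neutrophil markers 2 rose with exposure, among them Lcn2 (log2 fold change 1.55, adjusted p = 0.00396, mean of the 3 exposed groups vs Control), and so did 2 of 4 macrophage markers, among them Cd68 (1.38, adjusted p = 0.0152), while Cd163 was DE lower (-1.07, adjusted p = 0.148).

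The 32 detected members came from 11 of 14 families. Family 2 gave 14 of 29 genes on the array, family 4 gave 7 of 13, family 3 gave 1 of 5, and families 26 and 27 gave 2 of 2 each. Families 7, 11, 17, 20, 21 and 51 gave 1 each. Of the 32 genes not detected, 19 were above background on 0 arrays, 7 on 1 to 3 arrays and 6 on 4 to 6 arrays. The undetected members of family 2 were Cyp2a1, Cyp2a2, Cyp2b12, Cyp2b15, Cyp2c11, Cyp2c12, Cyp2c13, Cyp2c22, Cyp2c6v1, Cyp2c7, Cyp2d2, Cyp2d3, Cyp2g1, Cyp2j10 and Cyp2r1. Several of these, such as Cyp2c11, are major enzymes of rat liver. Cyp3a2, Cyp3a18, Cyp3a23-3a1 and Cyp3a62 of the drug-metabolizing family 3 were also not detected, and neither were Cyp4a2, Cyp4a3, Cyp4f1, Cyp4f4, Cyp4f40 and Cyp4x1 of family 4. Cyp7a1, Cyp8b1 and Cyp39a1 of bile acid synthesis, Cyp11a1, Cyp11b1 and Cyp11b2 of steroid hormone synthesis, and Cyp24a1, which degrades vitamin D, were not detected either.

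At an adjusted p under 0.05, 5 of the detected members differed between the exposed rats and Control, and they moved in both directions. Cyp7b1, Cyp2d1 and Cyp2d5 rose, while Cyp4b1 and Cyp2t1 fell. Upstream sequence of 4 of them was held in the RefSeq promoter table of assembly GRCr8, which matched 27 of the 32 detected members, and it is shown to let the related genes Cyp2d1 and Cyp2d5, which rose together, be set beside the genes that fell. Each line is the 250 bases before the annotated start, 5′ to 3′ on the strand of the gene, and capitals mark motif matches. The motifs searched on both strands were TATAAA (the core promoter element bound by the TATA-binding protein), CCAAT (the element bound by NF-Y), GCGTG (core of the dioxin response element), AGGTCA (nuclear receptor half-site), TGACNNNGC (core of the antioxidant response element), CACGTG (E-box of the clock factors) and TCACNCCA (core of the sterol response element).
Cyp2d1, chr7:115793431-115793680, minus strand: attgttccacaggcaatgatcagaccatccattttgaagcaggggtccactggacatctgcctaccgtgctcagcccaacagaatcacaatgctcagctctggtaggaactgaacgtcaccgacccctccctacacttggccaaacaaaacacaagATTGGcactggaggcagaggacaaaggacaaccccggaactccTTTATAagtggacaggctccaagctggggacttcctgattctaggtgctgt
Cyp2d5, chr7:115784488-115784737, minus strand: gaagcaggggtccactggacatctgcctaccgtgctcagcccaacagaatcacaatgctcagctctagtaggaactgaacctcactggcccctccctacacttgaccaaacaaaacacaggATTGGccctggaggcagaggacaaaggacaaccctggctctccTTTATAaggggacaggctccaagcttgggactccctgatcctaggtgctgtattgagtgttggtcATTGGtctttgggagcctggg
Cyp4b1, chr5:134393117-134393366, minus strand: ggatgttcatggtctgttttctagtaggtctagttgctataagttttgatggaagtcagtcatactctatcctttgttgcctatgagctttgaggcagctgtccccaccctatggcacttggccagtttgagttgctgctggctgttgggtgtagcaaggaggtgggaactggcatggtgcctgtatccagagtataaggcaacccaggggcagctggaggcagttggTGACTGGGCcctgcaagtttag
Cyp2t1, chr1:91575260-91575509, plus strand: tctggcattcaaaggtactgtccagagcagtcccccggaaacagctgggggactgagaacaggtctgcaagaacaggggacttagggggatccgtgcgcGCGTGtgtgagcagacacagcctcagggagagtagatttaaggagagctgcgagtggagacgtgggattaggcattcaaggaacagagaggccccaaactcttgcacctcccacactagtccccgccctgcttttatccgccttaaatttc

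Where the windows of Cyp2d1 and Cyp2d5 overlapped in an alignment, 201 of 215 bases were identical (93.5%). Both held the TATA box letters on the reverse strand (TTTATA, 51 bases before the start of Cyp2d1 and 86 before that of Cyp2d5), which 12.9% of all 33469 upstream windows held in either orientation. Both also held the CCAAT letters in reverse, as ATTGG, found in 34.0% of all windows. The window of Cyp4b1 held TGACTGGGC, a match to the antioxidant response element core, 22 bases before the start, and 10.1% of all windows held such a match. The window of Cyp2t1 held GCGTG 151 bases before the start, as did 25.9% of all windows. No 2 of these matches overlapped. Cyp2d1 and Cyp2d5 are close paralogs, and signal shared between their probes was not tested.

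Cyp7b1 hydroxylates oxysterols and helps to form the ligand of the lymphocyte guidance receptor EBI2. Its log2 signal was 8.17, 7.98 and 8.21 in Control, 8.78, 8.91 and 9.20 in CS+LPS, 8.71, 8.37 and 8.47 with NaHS, and 8.999, 8.76 and 8.86 with PPG. Each exposed rat lay above each control rat. The mean rose 1.59-fold with exposure (log2 fold change 0.67, SE 0.12, adjusted p = 0.0221), and a two-sided exact permutation test of 3 against 9 arrays gave p = 0.00455, the smallest p that its 220 relabellings allow.

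Cyp2d1 and Cyp2d5 belong to the subfamily that oxidizes many basic drugs. Cyp2d1 was at 8.84, 9.01 and 9.06 in Control, 9.46, 9.33 and 9.63 in CS+LPS, 9.45, 9.49 and 9.31 with NaHS, and 9.73, 9.52 and 9.79 with PPG. Its rise with exposure was 1.46-fold (0.55, SE 0.11, adjusted p = 0.0255). Cyp2d5 was at 8.85, 9.13 and 9.23 in Control, 9.59, 9.57 and 9.86 in CS+LPS, 9.45, 9.46 and 9.37 with NaHS, and 9.75, 9.57 and 9.84 with PPG. It rose 1.45-fold (0.54, SE 0.12, adjusted p = 0.0314). For both genes the 9 exposed arrays lay above the 3 control arrays without overlap. The third detected gene of the subfamily, Cyp2d4, which ranged from 8.67 to 9.89, differed by -0.01 (SE 0.23, adjusted p = 0.987).

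Cyp4b1 is a fatty acid hydroxylase of club cells that activates lung toxins such as ipomeanol. It was at 12.85, 13.31 and 12.86 in Control, 12.68, 12.13 and 12.49 in CS+LPS, 12.35, 12.73 and 12.48 with NaHS, and 11.59, 11.81 and 11.94 with PPG. Each control rat lay above each exposed rat, and the 3 PPG rats were the lowest of the 12. The level fell by 0.76 on the log2 scale with exposure (SE 0.15, adjusted p = 0.0273, two-sided exact permutation p = 0.0136).

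Cyp2t1 was at 10.22, 10.48 and 10.40 in Control, 10.11, 9.29 and 9.79 in CS+LPS, 9.89, 9.96 and 9.86 with NaHS, and 9.64, 9.47 and 9.65 with PPG. The control rats again lay above all exposed rats, by a small margin over CS+LPS 1. It fell by 0.62 (SE 0.15, adjusted p = 0.0452). The exact permutation p was 0.00455 for Cyp2t1, Cyp2d1 and Cyp2d5 alike. These genes, Cyp7b1 and Cyp4b1 were picked by limma on the same arrays, so their exact p-values are no separate support. No exact p-value given here was adjusted for the number of members.

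**Figure D1:**
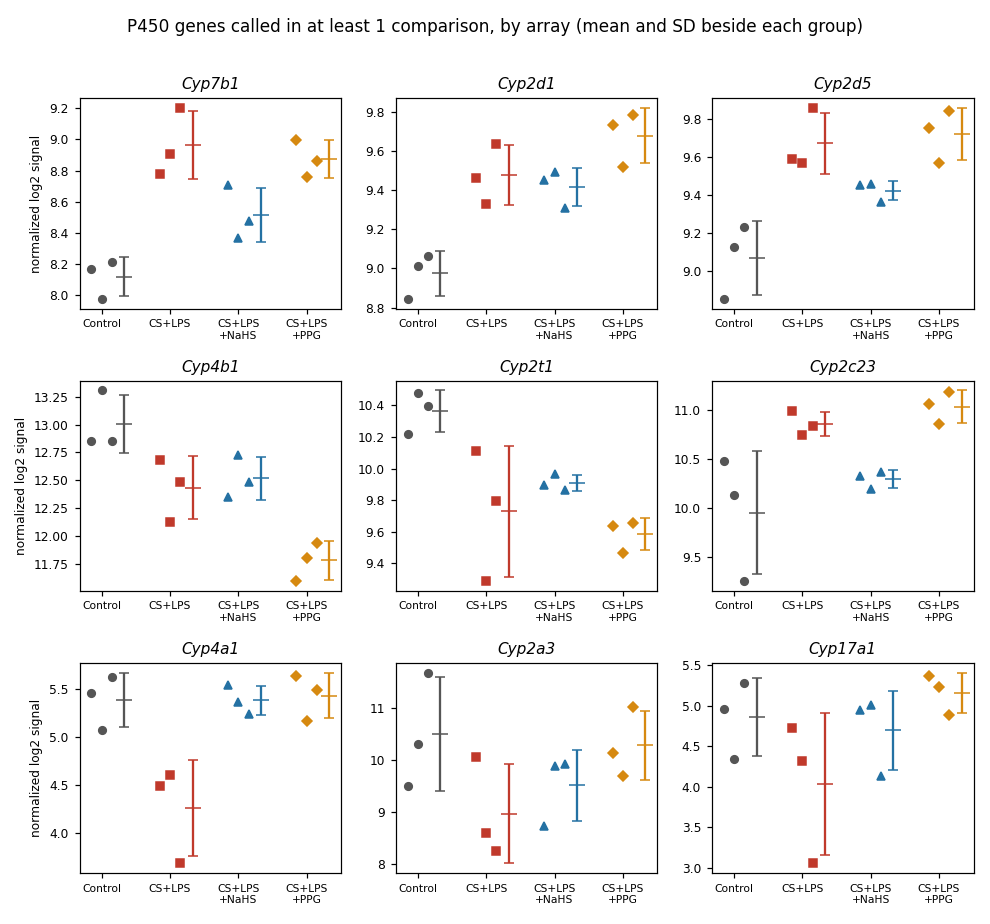
Normalized log2 signal (vertical axes, a scale of its own for each gene) of the 9 P450 genes called in at least 1 comparison, by group; points are single arrays and the bar beside them is mean and SD (n = 3). Exposed and Control arrays do not overlap for Cyp7b1, Cyp2d1, Cyp2d5, Cyp4b1 and Cyp2t1, and Cyp4b1 is lowest in the CS+LPS+PPG group.

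In numbers, 5 of 32 members (15.6%) passed the adjusted p for the mean of the 3 exposed groups vs Control, against 4.76% of all probes, and 3 of the 5 were higher (2.81% of all probes were called higher and 1.96% lower). The same 5 were the members whose exposed and Control arrays did not overlap (15.6%, against 8.91% of all probes). At an unadjusted p under 0.05 the members numbered 9, a share near the 30.3% of all probes. None was DE (0 of 32, against 3.22% of probes, and 0 of 32 by the methods' t-test), since their fold changes were under 2. The median log2 fold change was -0.04 over the members and -0.02 over all probes, and 14 members were higher and 18 lower.

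Without Control 3 the changes of 4 of these 5 genes stayed past the adjusted threshold, at 0.71 for Cyp7b1 (adjusted p = 0.0426), 0.60 for Cyp2d1 and 0.62 for Cyp2d5 (both 0.0439), and -0.84 for Cyp4b1 (0.0489), while Cyp2t1 was at -0.61 (0.109). Exposed and control rats were compared within slide 1 alone, NaHS and PPG rats against Control 1 and Control 2. There Cyp2d1 (0.62, adjusted p = 0.0427), Cyp4b1 (-0.93, 0.0408) and Cyp2t1 (-0.60, 0.0420) passed, and Cyp7b1 (0.62, 0.0515) and Cyp2d5 (0.58, 0.0507) just missed. Each of the 12 arrays was also left out in turn. The direction of the 5 genes could not change there, since their exposed and Control arrays do not overlap. The call for Cyp7b1 was then lost only without Control 1 (adjusted p = 0.0512), and that for Cyp2d1 only without Control 1 or CS+LPS+NaHS 1 (up to 0.0717). Cyp4b1 was lost without Control 1, NaHS 1, NaHS 3, PPG 1 or PPG 2 (up to 0.0552). Cyp2d5 was lost without Control 1 or any 1 of the NaHS and PPG arrays (up to 0.0819). Cyp2t1 kept its call only without CS+LPS 1 or CS+LPS 2 (otherwise up to 0.109).

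Against Control, the CS+LPS group had 2 DE members (6.25%, against 4.56% of all probes) and 2 with an adjusted p under 0.05 (6.25%, against 2.02%). An unadjusted p under 0.05 was found for 10 members and 25.2% of all probes. Cyp7b1 rose 1.79-fold (0.84, SE 0.15, adjusted p = 0.0289). The fatty acid hydroxylase Cyp4a1 fell by 1.13 on the log2 scale (SE 0.25, adjusted p = 0.0455) and was also DE. Cyp4a1 was at 5.46, 5.08 and 5.63 in Control, 4.49, 4.61 and 3.68 in CS+LPS, 5.54, 5.36 and 5.24 with NaHS, and 5.63, 5.17 and 5.50 with PPG. The CS+LPS arrays were the lowest of the 12, but the probe was dim, above background on 2 Control arrays and 1 CS+LPS array. When 1 array at a time was left out, the adjusted call was kept in 1 of 12 refits (adjusted p up to 0.130). Without CS+LPS 3 the difference from Control was -0.84 and no longer DE, and without Control 3 it was -1.01 (adjusted p = 0.0889). The Cyp7b1 call was lost without CS+LPS 2, CS+LPS 3 or NaHS 3 (adjusted p up to 0.0993).

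Cyp2a3, an enzyme of lung and nasal tissue that oxidizes coumarin, was the other DE member. It was at 9.50, 10.32 and 11.69 in Control, 10.06, 8.59 and 8.24 in CS+LPS, 8.72, 9.89 and 9.92 with NaHS, and 10.14, 9.69 and 11.02 with PPG. The CS+LPS and Control arrays overlapped. The difference was -1.54 (SE 0.62, adjusted p = 0.162), and the DE call was lost without Control 3 (-0.95), without CS+LPS 2 (-1.35) and without CS+LPS 3 (-1.18).

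The slide changed this comparison more than any other setting. With the slide as a block the CS+LPS arrays are set against Control 3 alone, so only sizes of differences are given. Calls then rose over the whole array as well as among the members. The largest differences among the members called were -2.93 for Cyp11b3, -2.88 for Cyp4a8, -2.73 for Cyp2a3 and -2.05 for Cyp2f4. On all of these genes Control 3 was the highest array. Without Control 3 only Cyp4a1 was DE, and Cyp7b1 (0.89) and Cyp2d5 (0.68) passed the adjusted p.

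In the CS+LPS+PPG group against Control, 6 of 32 members passed the adjusted p (18.8%, against 4.64% of all probes) and 2 were DE (6.25%, against 4.38%). At an unadjusted p under 0.05 there were 7 members, against 29.3% of all probes. Cyp4b1 was 2.34-fold lower (log2 fold change -1.23, SE 0.19, adjusted p = 0.0206), and Cyp2c23, an arachidonic acid epoxygenase best known from the kidney, rose 2.11-fold (1.08, SE 0.25, adjusted p = 0.0434). Cyp7b1 (0.76, adjusted p = 0.0311), Cyp2d1 (0.71, 0.0264) and Cyp2d5 (0.65, 0.0370) rose, and Cyp2t1 fell (-0.78, 0.0444). Both groups lie on slide 1 except for Control 3. Within slide 1 all 6 passed, with Cyp4b1 at -1.30 (adjusted p = 0.0213) and Cyp2c23 at 0.73 (0.0408).

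Cyp2c23 was at 10.47, 10.13 and 9.25 in Control, 10.98, 10.74 and 10.84 in CS+LPS, 10.32, 10.19 and 10.36 with NaHS, and 11.06, 10.85 and 11.18 with PPG. The CS+LPS and PPG rats lay above all control rats, and the NaHS rats overlapped with them. Control 3 was the lowest of the 12 arrays. Without it the rise of Cyp2c23 with PPG was 0.73, under a doubling, with an adjusted p of 0.0382. When 1 array at a time was left out, Cyp4b1 stayed DE in all 12 refits and kept its adjusted call in 9 (adjusted p up to 0.0707), and Cyp2c23 kept its adjusted call in 3 of 12 (up to 0.138). The call was lost for Cyp2d1 without Control 1 or any 1 PPG array (adjusted p up to 0.0979), and for Cyp7b1 without these or NaHS 3 (up to 0.101). Cyp2d5 was lost without Control 1 or any 1 NaHS or PPG array (up to 0.121), and Cyp2t1 kept its call only without CS+LPS 1 or CS+LPS 2 (otherwise up to 0.125).

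In the CS+LPS+NaHS group no member was called against Control (0 of 32 DE, against 2.67% of probes, and 0 with an adjusted p under 0.05, against 0.0989%). With limma, 8 members had an unadjusted p under 0.05 (17.1% of all probes did), and the methods' t-test called 0. The 5 genes above differed from Control by 0.40 for Cyp7b1, 0.44 for Cyp2d1, 0.35 for Cyp2d5, -0.49 for Cyp4b1 and -0.46 for Cyp2t1. They were called on a comparison that includes the NaHS arrays, and none of their exposed arrays overlapped Control. Their direction and lack of overlap here therefore follow from that choice. Over all members, 8 of 32 (25%) did not overlap between NaHS and Control, near the 24.8% of all probes. Cyp2c23 differed by 0.34 (SE 0.25). These comparisons share the control rats.

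Members were also compared between the treated groups and CS+LPS. With NaHS, 1 member was DE (3.12%, against 1.70% of all probes) and 0 passed the adjusted p (0.593% of probes did, and 5 members had an unadjusted p under 0.05, against 9.67% of probes). With PPG, 2 were DE (6.25%, against 2.05%) and 0 passed the adjusted p (0.523% of probes, with 3 members at an unadjusted p under 0.05, against 10.5% of probes). Cyp4a1 was the DE member in both, higher than in CS+LPS by 1.13 with NaHS (SE 0.25, adjusted p = 0.0816) and by 1.17 with PPG (adjusted p = 0.0798). These differences were 0.84 and 0.89 without CS+LPS 3, and 0.29 and 0.41 after normexp background correction. Cyp17a1, an enzyme of steroid hormone synthesis, was at 4.73, 4.32 and 3.05 in CS+LPS and at 5.37, 5.23 and 4.89 with PPG, a difference of 1.13 (SE 0.41, adjusted p = 0.359). It was above background on 6 arrays in all, 1 of CS+LPS, 2 of NaHS (4.95, 5.01 and 4.14) and 3 of PPG, and was not well above background on any Control array (4.96, 4.34 and 5.28). The Cyp17a1 difference was 0.64 without CS+LPS 3. Cyp17a1 passed the detection filter through the PPG group alone, and Cyp4a1 through the NaHS and PPG groups alone, the groups in which they were higher, so these DE counts are a description only. With probes above background on all 12 arrays no member was DE in either comparison.

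For NaHS against PPG no member was called (0 of 32 DE, against 0.523% of probes, and 0 with an adjusted p under 0.05, as for all probes). With limma 4 members had an unadjusted p under 0.05, against 8.74% of all probes, and the methods' t-test called 0. They were Cyp3a9, Cyp4b1, Cyp2c23 and Cyp7b1, named here after their values were seen. Cyp3a9, a steroid and drug hydroxylase of family 3, was lower with NaHS by 0.93 (SE 0.18, adjusted p = 0.563). It ranged from 9.04 to 9.61 with NaHS and from 10.23 to 10.43 with PPG, while the Control arrays lay between at 9.72 to 9.94. Cyp4b1 differed by 0.74, Cyp2c23 by -0.74 and Cyp7b1 by -0.36, all with an adjusted p of 0.563.

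**Figure D2:**
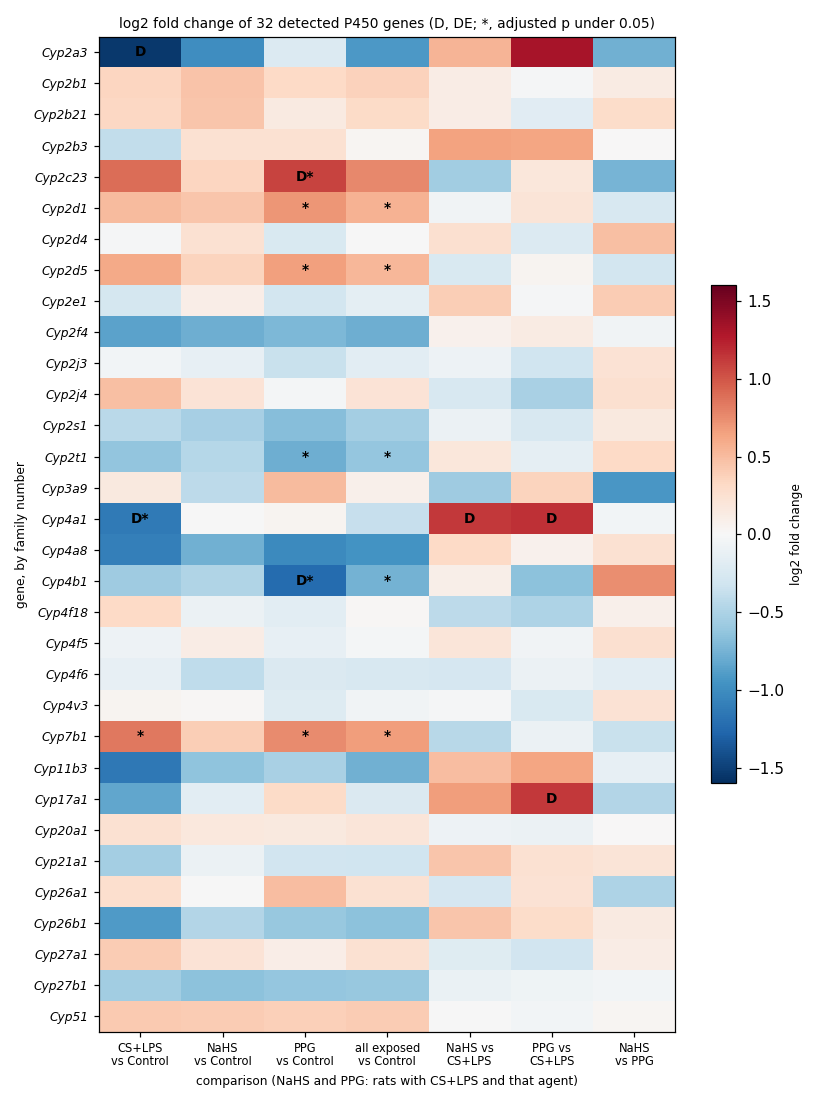
Log2 fold change (colour) of the 32 detected P450 genes (rows, by family number) in 7 comparisons (columns); D marks a DE gene and the asterisk an adjusted p under 0.05. Marks stand in 9 genes, and there is none in the columns of NaHS against Control and of NaHS against PPG.

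Of the 32 members, 9 were highest on Control 3 and 7 were lowest, shares no larger than the 31.1% and 27.9% of all probes. The fatty acid hydroxylase Cyp4a8 was at 15.52 on Control 3 and at 12.24 to 13.33 on the other 11 arrays. Cyp2f4, the naphthalene-oxidizing enzyme of club cells, was at 15.99 against 13.72 to 14.37, and Cyp2s1, an enzyme of surface epithelia, was at 13.04 against 11.21 to 11.80. Cyp27b1, which activates vitamin D, was at 7.77 against 5.55 to 6.28. The steroid enzyme Cyp11b3 was at 7.26 against 3.44 to 5.90, and it was above background on 7 arrays. Among the 7 lowest there were Cyp2e1 (10.05, against 10.55 to 12.33) and Cyp2c23.

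On the same array the summed level of the 5 detected club and secretory cell markers was 19.25 against at most 18.65 elsewhere. Of these markers, Scgb1a1 (18.53) and Scgb3a2 (17.44) were highest on Control 3, but Scgb3a1 (13.65), Bpifa1 (11.44) and Sec14l3 (15.65) were not. The summed level of the 3 ciliated cell markers was 14.58 against at most 13.10, and each of them was highest on Control 3. The club cell sums of the control rats ran from 18.34 to 19.25, those of the CS+LPS rats from 18.03 to 18.31, those of the NaHS rats from 18.12 to 18.41 and those of the PPG rats from 18.24 to 18.65. In the same order of groups, the ciliated cell sums ran from 12.58 to 14.58, from 12.53 to 13.10, from 12.73 to 12.89 and from 12.70 to 12.98. Summed levels of the 6 adipocyte markers (14.74 against at most 13.97) were also highest on Control 3. So were those of the 4 markers of steroid hormone producing cells (9.54 against at most 8.41). The same held for the 7 type 2 cell markers (20.35 against at most 20.18) and the 5 heart muscle markers (16.49 against at most 16.14). A sum follows its most intense genes, and single markers differed. Sftpc (19.39) and Sftpb (18.07) were highest on Control 3, but Sftpa1 (16.03), Napsa (15.55), Lamp3 (13.07) and Slc34a2 (11.98) were lowest there. Sftpd (17.89) was neither. Cidec, Cfd, Actc1, Star and Mc2r were not highest there, while the other adipocyte, heart muscle and steroid cell markers were. The part of these cell types in the P450 values was not tested.

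**Figure D3:**
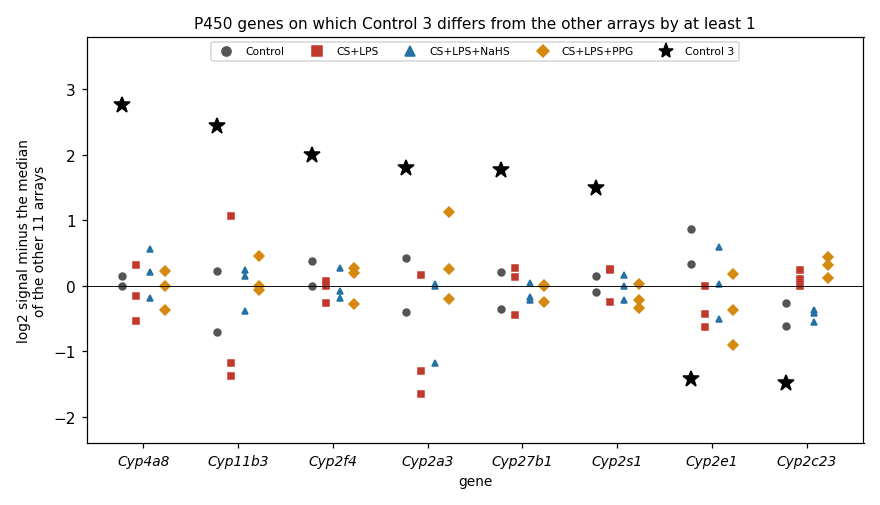
Log2 signal minus the median of the other 11 arrays (vertical axis) for the P450 genes on which Control 3 (star) differs from that median by at least 1; other symbols are single arrays by group. Control 3 lies 2.76 above the median for Cyp4a8 and 1.48 below it for Cyp2c23.

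For the mean of the 3 exposed groups vs Control, Cyp4a8 differed by -0.96 (SE 0.49, adjusted p = 0.206), Cyp2a3 by -0.92 (SE 0.51, 0.241), Cyp2f4 by -0.79 (SE 0.34, 0.147) and Cyp27b1 by -0.61 (SE 0.35, 0.253). Without Control 3 these differences were -0.07, -0.32, -0.18 and 0.00. Cyp2s1 went from -0.55 to -0.06. Its sign was the same on its other 2 probes, at -0.63 and -0.39. The sign turned for 3 members, Cyp11b3 (-0.77 to 0.12), Cyp27b1 and Cyp4f5 (-0.03 to 0.09), and for 10 others the size fell to less than 50% of its value. Cyp2e1, the ethanol-inducible enzyme, moved the other way, from -0.15 to -0.83 (adjusted p = 0.188).

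**Figure D4:**
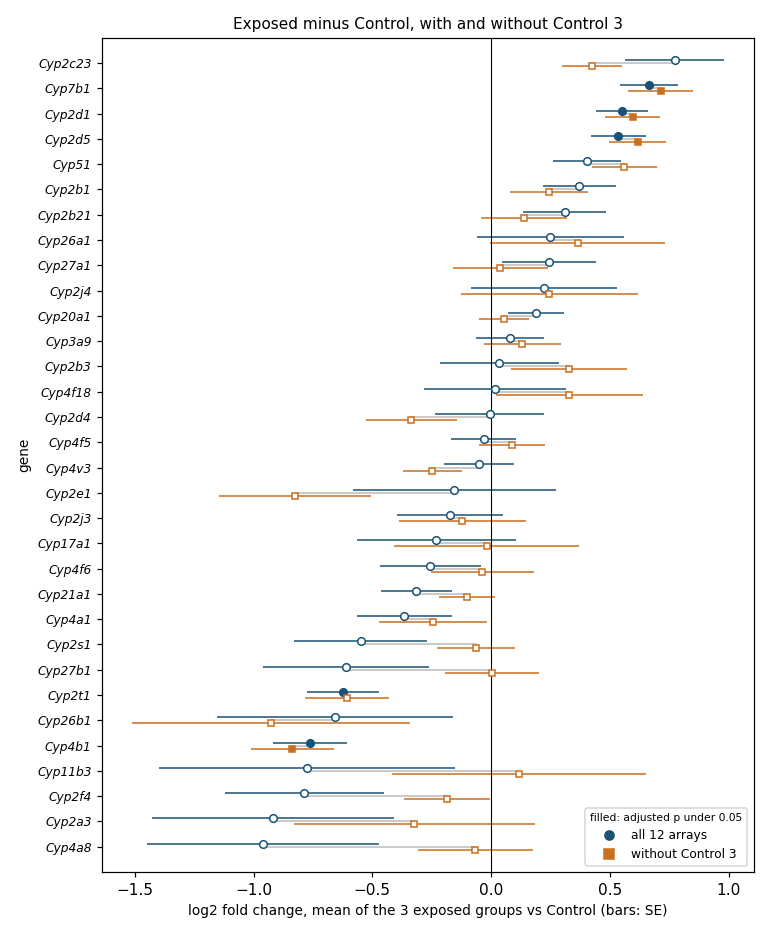
Log2 fold change of the mean of the 3 exposed groups vs Control (horizontal axis, bars are SE) for the 32 detected members with all 12 arrays (circles) and without Control 3 (squares); filled symbols have an adjusted p under 0.05. Cyp7b1, Cyp2d1, Cyp2d5 and Cyp4b1 are filled in both, and Cyp4a8, Cyp2f4, Cyp2s1 and Cyp27b1 move to near 0 without Control 3.

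The remaining members of family 2 showed small differences for the same comparison. Cyp2b1, a major P450 of rat lung, ranged from 14.08 to 15.09 and differed by 0.37 (adjusted p = 0.140). Its relatives Cyp2b21 (7.49 to 8.63) and Cyp2b3 (5.04 to 6.60, above background on 11 arrays) differed by 0.31 and 0.03, and the second probe of Cyp2b3 gave -0.71 (adjusted p = 0.127). The arachidonic acid epoxygenases Cyp2j3 (7.90 to 9.17) and Cyp2j4 (9.60 to 11.09) differed by -0.17 and 0.22. Cyp2e1 ranged from 10.05 to 12.33.

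In family 4, the Cyp4f enzymes, which hydroxylate leukotriene B4 and related lipids, ranged from 10.35 to 10.94 for Cyp4f5, from 11.40 to 12.45 for Cyp4f6 and from 5.68 to 7.19 for Cyp4f18. They differed by -0.03, -0.26 and 0.02. The fatty acid hydroxylase Cyp4v3 (8.47 to 9.19) differed by -0.05. In family 3, Cyp3a9 (9.04 to 10.43) differed by 0.08, with NaHS and PPG on opposite sides of Control (-0.42 and 0.51).

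Among the enzymes of sterols, steroids, vitamin D and retinoic acid, Cyp51, the lanosterol demethylase of cholesterol synthesis, was at 10.37 to 10.87 in Control and 10.62 to 11.21 in the exposed rats. It differed by 0.40 (SE 0.14), with an exact permutation p of 0.00909 and an adjusted p of 0.0973 from limma (0.56 and 0.0695 without Control 3). Cyp27a1, a sterol hydroxylase of mitochondria, ranged from 8.97 to 10.04 and differed by 0.24. The retinoic acid hydroxylases Cyp26a1 (4.54 to 6.28, above background on 11 arrays) and Cyp26b1 (9.93 to 12.29) differed by 0.25 and -0.66. The steroid hydroxylase Cyp21a1 ranged from 7.55 to 8.65 and differed by -0.31 (adjusted p = 0.181), and the orphan enzyme Cyp20a1 ranged from 10.22 to 10.82 and differed by 0.19. Cyp17a1 differed by -0.23 and Cyp4a1 by -0.37.

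Of the 11 electron donors and membrane partners of P450, all detected, 1 fell with exposure and none rose. It was Por, the reductase that feeds the microsomal enzymes. Por was at 12.80, 12.81 and 12.44 in Control, 12.27, 11.64 and 11.91 in CS+LPS, 11.71, 12.23 and 12.02 with NaHS, and 11.76, 11.77 and 12.07 with PPG. All 3 control rats lay above all exposed rats. Por fell by 0.75 on the log2 scale (SE 0.16, adjusted p = 0.0318), and by 0.87 without Control 3 (adjusted p = 0.0456). With PPG against Control, Por fell by 0.81 (adjusted p = 0.0468). There the ferredoxin Fdx2 rose by 0.50 (adjusted p = 0.0421), from 11.90 to 11.97 in Control to 12.37 to 12.55 with PPG. The other ferredoxin, Fdx1, was not called, and whether Fdx2 feeds P450 enzymes here was not tested. The median log2 fold change of the 11 genes was 0.20 for exposure.

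Of 16 detected nuclear receptors and other factors known to control P450 genes, 2 rose with exposure and none fell. Pparg, a fatty acid receptor of macrophages and fat cells, was at 11.94, 11.50 and 11.81 in Control, 12.41, 12.66 and 12.37 in CS+LPS, 12.32, 12.07 and 12.08 with NaHS, and 12.52, 12.83 and 12.66 with PPG. It rose by 0.69 (SE 0.13, adjusted p = 0.0221; 0.72 and 0.0456 without Control 3). Nr5a2, which controls P450 genes of bile acid and steroid synthesis, was at 5.26, 5.50 and 3.54 in Control and 5.77 to 6.92 in the exposed rats. It rose by 1.65 (adjusted p = 0.0376), and by 1.04 without Control 3 (0.0767). Ppard, a related fatty acid receptor, was at 6.89, 6.08 and 6.61 in CS+LPS and 7.67, 7.97 and 7.99 with NaHS, and was DE between these groups (1.35, adjusted p = 0.0771), which lay on different slides. The median over the 16 genes was -0.16.

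Thromboxane synthase, Tbxas1, is a P450 of platelets and macrophages without a Cyp symbol. It was at 11.72, 11.73 and 11.07 in Control, 12.51, 12.44 and 12.31 in CS+LPS, 12.08, 12.01 and 11.94 with NaHS, and 12.33, 12.29 and 12.28 with PPG. It rose by 0.73 with exposure (SE 0.14, adjusted p = 0.0241; 0.52 and 0.0337 without Control 3). Prostacyclin synthase, the other gene of that pair, was not called. Of 4 macrophage markers 2 rose in the same comparison, with levels summed over 4 genes that ran from 12.20 to 13.00 for the control rats, from 13.69 to 14.29 for the CS+LPS rats, from 13.70 to 14.07 for the NaHS rats and from 13.61 to 13.97 for the PPG rats, and their part in the rise of Cyp7b1, Pparg and Tbxas1 was not tested. Of 5 endothelial markers 2 fell with exposure, among them Pecam1 (-0.65, adjusted p = 0.0211), and the median of that list was -0.32. The endothelial marker Cdh5 differed by 0.25 (adjusted p = 0.487) and was DE higher with NaHS against Control (1.08, adjusted p = 0.147). Lamp3, alone of 7 type 2 cell markers, rose by 0.89 with exposure (adjusted p = 0.0180), while the median of that list was -0.14. Of the 5 detected club and secretory cell markers, 0 passed the adjusted p with exposure and Scgb3a1 alone was DE (2.54, adjusted p = 0.0515). Sec14l3 fell in CS+LPS (-0.61, adjusted p = 0.0450) and Scgb3a1 rose in the PPG group (3.61, 0.0397). Bpifa1 was also DE higher in the PPG group (6.45, adjusted p = 0.0524), while the median of the 5 markers there was -0.02.

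**Figure D5:**
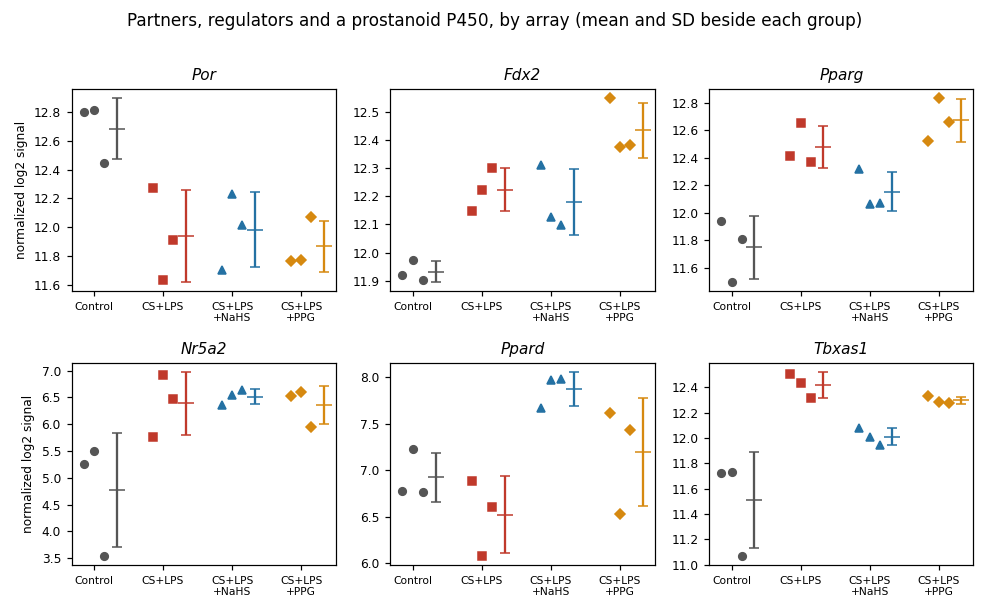
Normalized log2 signal (vertical axes, a scale of its own for each gene) of the reductase Por, the ferredoxin Fdx2, the receptors Pparg, Nr5a2 and Ppard, and thromboxane synthase Tbxas1, by group; points are single arrays and the bar is mean and SD (n = 3). Por is lower in all exposed rats than in Control, and Pparg and Tbxas1 are higher.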

How the data were processed

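RNA from the left upper lung lobe of 12 rats, 1 array each, had been hybridized to Agilent rat arrays in 1 colour. For each array the authors deposited the output of Agilent Feature Extraction (version 10.7 in the submitters' processing notes), of which the processed signal, a linear intensity with background already taken off, was used. They also deposited lists of DE genes with fold changes, p-values and signals of the same arrays, which were not used here. Each rat's group came from its label.

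Spots marked as outliers by the software were left out, the log2 signals of a probe's spots were averaged, and arrays were shifted to share 1 value, the mean, of their 75th percentiles. A probe was kept if at least 50% of its spots exceeded background clearly on the 3 arrays of any group, which left 21239 of 30367 probes. On single arrays 66.0% to 75.5% of the probes were above background, and the precision is limited by 3 arrays per group. No spot of a member was saturated. Symbols came from the probe's RefSeq accession through the RefSeq genes of assembly GRCr8, which served for naming and upstream sequences only and matched 17514 probes. The arrays were designed on another assembly, so no probe position is given.

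Computations used R 4.3.3, limma 3.58.1 (lmFit, eBayes) and data.table (version 1.17.8). All 12 arrays entered 1 model and 7 comparisons were read from it. Per-array values are given for members called in at least 1 comparison. Other detected members are given by their range, and genes of lists of P450 partners, regulators, prostanoid enzymes and cell type markers are named only when called. For the mean of the 3 exposed groups vs Control, single genes were also tested by exact permutation of the arrays, which cannot go below p = 0.1 for 3 against 3. Slides were read from the array codes. Quantile normalization, normexp background correction (offset 50), other detection filters, the slide, the replicate number, the methods' t-test, the median over probes and each left-out array were tried as alternatives. Fits were tested on simulated data. Members and lists were chosen with earlier results of these data known.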

Additional observations from a re-analysis of the deposited data

How the results depend on the processing

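In 350 refits of the 17 called gene results under the alternatives, the direction turned in 0, the call (DE or adjusted) was kept in 254 and lost in 96. Many of these refits left out 1 array, which cannot turn the direction of a gene whose compared groups do not overlap. For these genes the methods' t-test, the replicate block, the detection filters and the median over probes reused the same group means. The slide block left the differences of the exposed rats from Control unchanged. In all of these settings the direction could not turn. For CS+LPS vs Control, 2 DE members became 1 under quantile normalization, normexp correction and the methods' t-test. The count was also 1 with only probes above background on all 12 arrays. In these settings 2.09% to 4.34% of all probes were DE. With probes above background on at least 1 array (the wider filter) 4 members were DE, against 6.28% of all probes. The slide as a block and slide 2 alone, an alternative chosen after seeing the data, leave Control 3 as the only control. No counts are given for them in this comparison. The adjusted count for CS+LPS vs Control, 2, became 1 under quantile normalization, normexp and the wider filter (0.965%, 4.14% and 0.809% of all probes). By the methods' t-test it became 0 (0.00471% of all probes). For PPG vs Control the 2 DE members became 1 under normexp, the slide block and within slide 1 (1.81%, 3.11% and 3.12% of all probes). The 6 adjusted calls became 3 with the wider filter (1.30% of all probes) and 0 by the t-test, as for all probes. For NaHS vs CS+LPS, 1 DE member became 0 under quantile normalization, normexp and the filter on all 12 arrays (1.20%, 0.452% and 1.01% of all probes). Under the wider filter it became 2 (2.26% of all probes). With the slide block 11 were DE and 9 adjusted calls stood in place of 0. Calls rose over the whole array there, to 19.9% of all probes DE and 23.0% adjusted. For PPG vs CS+LPS, 2 DE members became 0 under quantile normalization, normexp and the filter on all 12 arrays (1.59%, 0.574% and 1.18% of all probes). By the t-test 1 was DE (1.45% of all probes). With the slide block 11 were DE, against 19.4% of all probes, and 13 adjusted calls stood in place of 0, against 22.6%. For the mean of the 3 exposed groups vs Control, 0 DE members became 1 with the wider filter (4.90% of all probes). The 5 adjusted calls became 12 with the slide block, 3 within slide 1 and 3 by the t-test, against 28.7%, 2.22% and 3.96% of all probes. The slide blocks rest on Control 3 as the only control array of slide 2.

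Leaving out 1 array at a time gave 1 to 7 DE and 0 to 2 adjusted members for CS+LPS vs Control, 0 to 3 and 0 to 0 for NaHS vs Control, 1 to 5 and 0 to 5 for PPG vs Control, 0 to 2 and 0 to 1 for NaHS vs CS+LPS, 0 to 3 and 0 to 1 for PPG vs CS+LPS, 0 to 2 and 0 to 0 for NaHS vs PPG, and 0 to 6 and 1 to 5 for the mean of the 3 exposed groups vs Control. The highest DE counts against Control, 7, 3, 5 and 6, came without Control 1. In that refit 7.08%, 4.58%, 6.29% and 5.51% of all probes were DE in the same order of comparisons. The adjusted count of 1 for the exposed rats also came without Control 1, with 1.87% of all probes. Among the low ends, the DE count of 1 for CS+LPS and for PPG against Control came without Control 3. There 2.88% and 3.11% of all probes were DE. An adjusted count of 0 came without CS+LPS 2 for CS+LPS vs Control (1.04% of all probes). For PPG vs Control it came without PPG 1 (0.0565% of all probes).

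Replicate numbers did not pair the samples: same-numbered arrays deviated from their group means with correlations of -0.308 to 0.139 over 18 pairs. A replicate block left the DE counts as they were and took the adjusted calls from 2 to 0 for CS+LPS vs Control, from 6 to 0 for PPG vs Control and from 5 to 1 for the exposed rats. The adjusted share of all probes fell as well, in the same order from 2.02% to 0.372%, from 4.64% to 0.151% and from 4.76% to 1.25%.

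Cyp4a1, Cyp11b3 and Cyp17a1 were above background on only 9, 7 and 6 of 12 arrays, and their values are the least certain.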

Other observations

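The cell type markers gave the following for the mean of the 3 exposed groups vs Control. Of 7 detected neutrophil markers 3 were DE and 2 passed the adjusted p, all higher, with a median log2 fold change of 0.98. Of 4 macrophage markers 1 was DE higher (Cd68), 1 was DE lower (Cd163, -1.07, adjusted p = 0.148), and 2 passed the adjusted p, both higher (Cd68, and Siglec1 at 0.95, adjusted p = 0.0263). Of 5 endothelial markers 2 passed the adjusted p, both lower (Pecam1, and Tek at -0.51, 0.0484), and of 7 type 2 cell markers 1 passed, Lamp3. No marker of ciliated cells (3 detected), hepatocytes (3), adipocytes (6), heart muscle (5) or steroid hormone producing cells (4) was called by either rule in this comparison. The spread of 2 of these lists within groups was wide, with summed levels of 12.63 to 16.49 for heart muscle and 11.92 to 14.74 for adipocytes over the 3 control arrays.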
